A study of Mus musculus with 40 samples.

Results

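Cytosolic ribosomal proteins are the protein subunits of the ribosomes that translate messenger RNAs from the nucleus. Their genes were taken from the deposited table by symbol: rows starting with Rpl or Rps followed by a digit, or equal to Rpsa, were kept, and S6 kinases (Rps6k), Rpl3, Rpl3l and pseudogene symbols holding -ps were left out. The rule gave 78 of 11450 rows, 44 of them named for the large and 34 for the small subunit. Of these, 72 are core subunits. The other 6 are Rpl22l1, Rps27l, Rpl36al, Rpl7l1 and Rps4l, paralogs of core subunits, and Rps19bp1, which encodes a binding partner of Rps19 and is no ribosomal protein itself. Rps4l is annotated as a transcribed processed pseudogene, and the other 77 genes as protein-coding.

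The libraries came from adult mice of the inbred strain C57BL/6 after permanent closure of the left anterior descending (LAD) coronary artery with a ligature, a model of heart attack. Hearts were taken 3, 7, 14, 21 or 42 days later from 4 mice per day, and from every heart both the injured tissue (the fibrotic scar) and remote, uninjured tissue were sequenced, so that there were 10 groups of 4 and 40 libraries from 20 mice. The uninjured libraries are therefore tissue of operated hearts and not of unoperated animals. Mice of day 42 carry B labels and all others A labels, so that day 42 and the set of animals cannot be told apart. The table gives RPKM, reads scaled by gene length and by library size.

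A ribosome holds 1 copy of most of its proteins, and cells make them in matched amounts because unpaired subunits are degraded. In vertebrates most of their messenger RNAs begin with a C followed by a run of pyrimidines, the 5′ terminal oligopyrimidine (TOP) tract, through which the growth kinase mTOR and the protein Larp1 set their translation and stability. In the heart, ribosome content is known to rise with growth of the muscle cells, and dividing and matrix-secreting cells make many ribosomes.

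Start-site sequence was at hand for 59 of the 78 genes (RefSeq, GRCm38.p6). The tract was searched on the gene's strand as the longest run of C and T that starts with C and begins within 10 bases of the annotated start, and was called at 6 or more bases. Where a gene had several annotated starts, the one with the longest tract was kept. The part of the number of starts per gene in the shares that follow was not tested. It was called in 32 of these 59 genes (54.2%), against 23.6% of the other 8537 rows with sequence and 21.9% of all 27025 genes with sequence. The windows below run from 15 bases before the annotated start, 5′ to 3′, with the tract in capitals. The first 6 hold some of the longest tracts that end within the window, and show the motif. In Rpl34 the capitals begin at the 10-base limit, and the run of C and T goes on before them to the first base of the window.
Rpl35, chr2:39005117-39005146, - strand: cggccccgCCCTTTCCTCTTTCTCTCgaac
Rpl15, chr14:18270972-18271001, - strand: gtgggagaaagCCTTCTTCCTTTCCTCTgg
Rps10, chr17:27635230-27635259, - strand: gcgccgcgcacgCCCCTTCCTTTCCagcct
Rpl34, chr3:130730323-130730352, - strand: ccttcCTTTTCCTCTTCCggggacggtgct
Rps18, chr17:33955651-33955680, - strand: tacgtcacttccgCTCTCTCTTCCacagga
Rps6, chr4:86857353-86857382, - strand: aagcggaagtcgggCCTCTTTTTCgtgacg
The next 7 belong to genes that stand apart from the rest of the ribosomal proteins in the comparisons that follow, among those with sequence. In Rps12 and Rpl13a the tract runs on past the end of the window.
Rps12, chr10:23787195-23787224, - strand: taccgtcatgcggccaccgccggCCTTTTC
Rpl13a, chr7:45128731-45128760, - strand: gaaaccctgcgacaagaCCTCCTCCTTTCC
Rpl10a, chr17:28328456-28328485, + strand: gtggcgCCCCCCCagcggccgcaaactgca
Rpl12, chr2:32961697-32961726, + strand: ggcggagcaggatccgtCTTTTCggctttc
Rps2, chr17:24720048-24720077, + strand: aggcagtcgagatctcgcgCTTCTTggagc
Rpl10, chrX:74270801-74270830, + strand: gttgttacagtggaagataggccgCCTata
Rps13, chr7:116334176-116334205, - strand: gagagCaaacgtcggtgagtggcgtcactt
The tract was of 14 bases in Rpl13a, 11 in Rps12, 7 in Rpl10a and 6 in Rpl12 and Rps2, and it was not called in Rpl10 and Rps13. A tract in such a window is a match of letters and not a measured transcript start.

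All 78 genes passed the filter on low values, 1 RPKM in at least 4 libraries, as did 11390 rows in all. Mean levels over the 40 libraries ran from 5.74 RPKM for Rpl22l1 to 426 RPKM for Rps12, a 74.1-fold range with a median of 46.1 RPKM. Rps12, Rpl4 and Rpl8 were the highest of the 78, and Rpl22l1, Rpl13a and Rps19bp1 the lowest. How reads that also match processed pseudogenes were counted, and which gene lengths were used, is not given in the sources used here, so levels between genes are uncertain for this family. Whole reads were worked back from the RPKM: libraries held 11783328 to 28623320 recovered reads, and a ribosomal protein gene had a median of 1887 reads per library.

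The regions differed in the levels of cell type marker genes. The summed RPKM of 12 heart muscle genes was 1515 to 7868 in injured and 25411 to 41703 in uninjured libraries. All 12 were lower in the injured region on each day (38.7% to 41.0% of all genes). Fibroblast genes (10) summed to 1946 to 7043 against 545 to 1063 RPKM, and macrophage genes (12) to 759 to 2864 against 304 to 482 RPKM. On day 3, 7 of the 10 fibroblast genes were higher (44.1% of all genes) and 2 were lower (39.6%), Dcn at -1.17 and Dpt at -1.15 (log2). On each later day all 10 were higher (40.5% to 43.6% of all genes). Of the macrophage genes 11 were higher on day 7 and 12 on the other days. Mitochondrially encoded genes took 0.793% to 5.24% of recovered reads in injured and 7.92% to 15.2% in uninjured libraries. In bulk tissue, fewer cells of a type and less RNA per cell cannot be told apart, and the part of these cell types in the results on ribosomal proteins was not tested.

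In RPKM as deposited, the ribosomal protein genes were lower in the scar on days 14 and 21 than on day 3, as they also were in percent of recovered reads. Their RPKM summed to 6096, 6845, 7126 and 5519.5 in the 4 injured libraries of day 3, with a mean of 6396 ± 729 (SD, n = 4). The sums were 5018, 5281, 4856 and 4856 on day 14 and 4378, 5021, 4710.4 and 4704 on day 21, with means of 5003 ± 200.5 and 4703 ± 262. Every injured library of days 14 and 21 lay below all 4 of day 3. On day 7 the mean was 5890.5 ± 719.5, and on day 42 it was 5449 ± 69.6. In the uninjured region the means were 6055 ± 386, 5833 ± 375, 6337 ± 521, 6357 ± 253 and 5411 ± 284 on days 3, 7, 14, 21 and 42. On the deposited scale the injured sum was below that of the same heart's uninjured region in 4 of 4 mice on day 14 and in 4 of 4 on day 21, by factors of 0.719 to 0.842 and 0.678 to 0.773. It was higher in 3, 2 and 2 of 4 mice on days 3, 7 and 42.

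**Figure D1:**
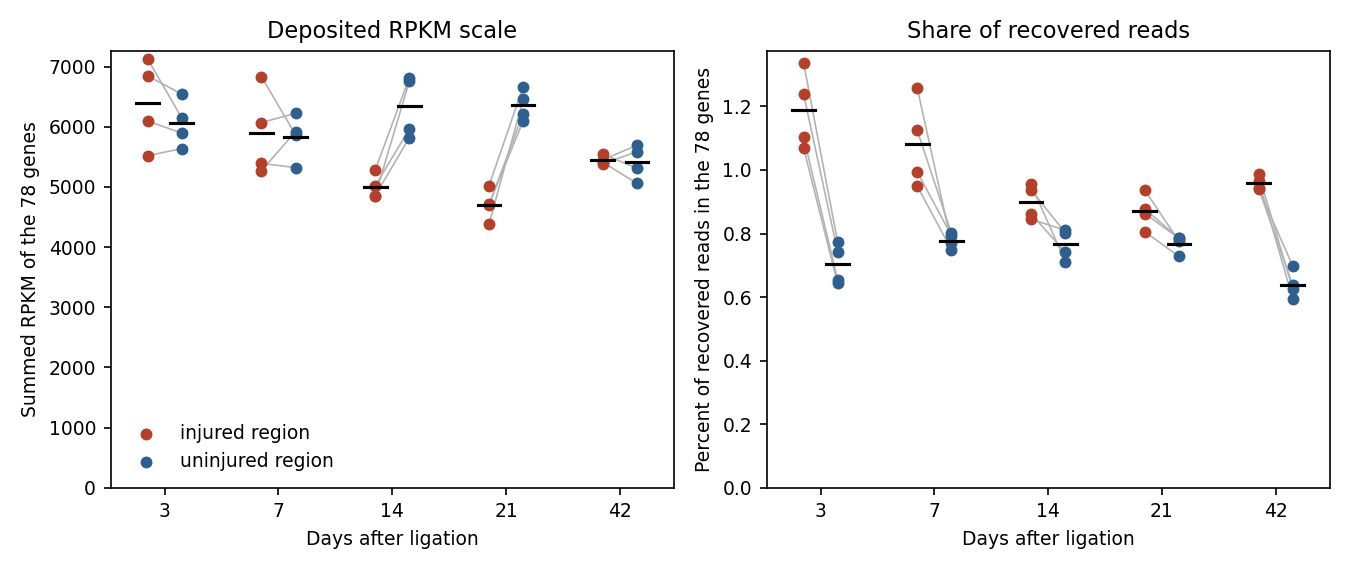
Level of the 78 ribosomal protein genes in each library by day after ligation, as summed RPKM (left) and as percent of the recovered reads (right). Points are libraries, grey lines join the regions of 1 mouse and black bars are means of 4. On the left the injured points of days 14 and 21 lie below the uninjured ones, and on the right all injured points lie above their own mouse's uninjured point.

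Which region was higher depended on the scaling between libraries. Total recovered reads over the library size behind the RPKM were 1.31 to 1.63 in uninjured and 0.962 to 1.05 in injured libraries, relative to the median injured library, so the deposited values are not scaled to the total of these reads. As a share of all recovered reads the 78 genes took more in the scar than in the uninjured region in all 4 mice of every day. The share was 1.07% to 1.34% on day 3 against 0.643% to 0.774% in the uninjured region, a ratio within mice of 1.66 to 1.73. On day 21 it was 0.806% to 0.937% against 0.728% to 0.786%, a ratio of 1.10 to 1.21. On day 42 it was 0.940% to 0.988% against 0.595% to 0.698%, a ratio of 1.35 to 1.625. On both scales the ratio of the injured to the uninjured region was higher on days 3 and 42 than on day 21 in all 4 mice of each day.

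Gene by gene, the counts were as follows on the deposited scale. On day 3, 18 of the 78 genes passed the test as higher in the scar and 17 as lower by limma (adjusted p under 0.05 over all 11390 genes), where 44.1% of all genes were higher and 39.6% lower. On day 7, 10 were higher (43.6% of all genes) and 21 lower (38.7%). On day 14, 3 were higher (42.4%) and 60 lower (40.5%), and on day 21, 0 were higher (43.1%) and 65 lower (41.0%). On day 42, 7 were higher (40.5%) and 21 lower (38.7%). The median log2 difference of the 78 genes was 0.02, -0.01, -0.38, -0.46 and -0.07 on the 5 days, against 0.06, 0.05, 0.03, 0.03 and 0.03 for all genes tested. The 60 and 65 lower genes are a larger share of the family than the share of all genes called lower, and the counts of days 3, 7 and 42 are smaller shares than those of all genes. Without mouse A8, 10 and not 17 genes were lower on day 3.

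The direction of these region differences turned with the scaling. Rescaled to total recovered reads, 74, 62, 27, 22 and 64 genes were higher and 0, 2, 11, 9 and 0 lower on days 3, 7, 14, 21 and 42. Of all genes 68.1%, 62.2%, 64.8%, 64.7% and 67.9% were higher and 21.3%, 24.7%, 22.6%, 22.6% and 19.2% lower on that scale. The median of all genes then moved to 0.60, 0.43, 0.48, 0.51 and 0.51, and that of the ribosomal protein genes was 0.70, 0.44, 0.19, 0.14 and 0.54. Of all calls, 76.2% and 74.1% were higher on days 3 and 21 on that scale, against 52.7% and 51.3% on the deposited one. Relative to the median of all genes the ribosomal protein genes were thus at 0.10, 0.01, -0.30, -0.37 and 0.03 by total reads and at -0.03, -0.06, -0.415, -0.49 and -0.10 as deposited. Total reads change each library by 1 factor, which by itself moves all genes alike. These relative values therefore differ from the deposited ones only through the 1 RPKM added to every value before taking log2, which weighs more on low genes. Quantile normalization gave 0.59, 0.53, 0.28, 0.24 and 0.51 and so no lower value than that of all genes on any day. With every library brought to the same sum of RPKM, 74, 77, 73, 72 and 76 genes were higher and 0 were lower on any day, where 66.3%, 76.8%, 79.2%, 79.9% and 79.8% of all genes were higher and 19.3%, 14.0%, 11.3%, 10.9% and 10.6% lower. The family was then at 0.11, 0.08, -0.18, -0.24 and 0.11 relative to all genes, again a change of 1 factor per library. On each of these 4 scales days 14 and 21 had the lowest values relative to all genes, whereas the direction between the regions, here and for the single genes that follow, holds for the scale it is given on.

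**Figure D2:**
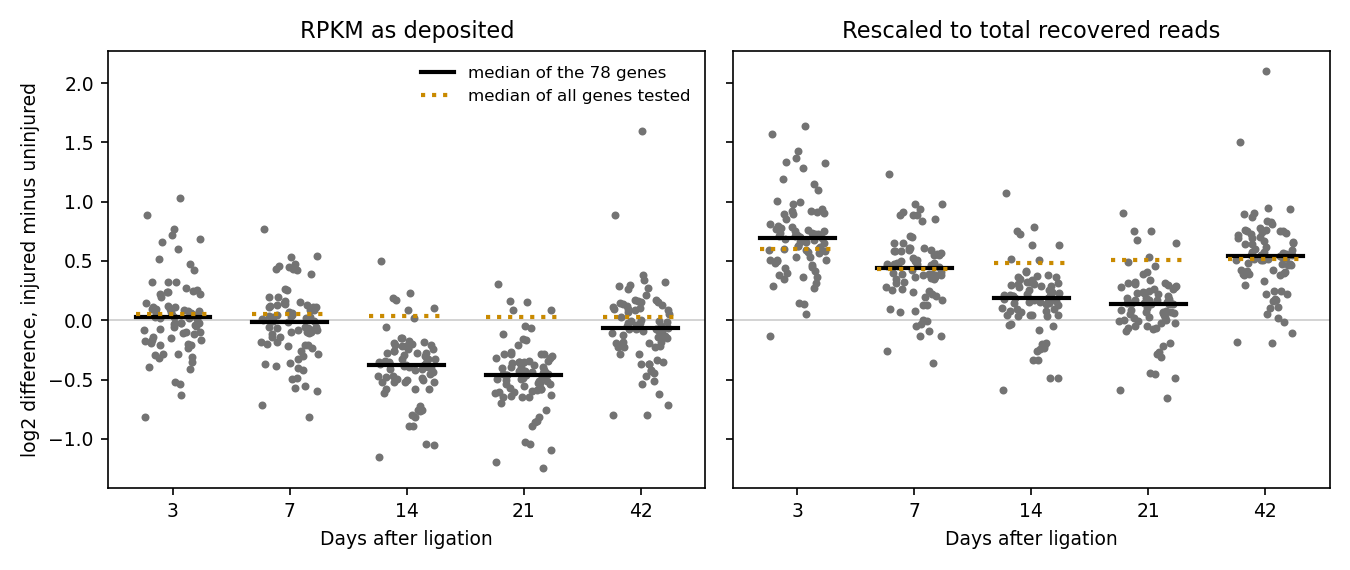
Region difference (log2, injured minus uninjured) of each of the 78 genes by day, from RPKM as deposited (left) and rescaled to total recovered reads (right). Points are genes, black bars their median and dotted bars the median of all 11390 genes tested. The median of the 78 genes lies below that of all genes on days 14 and 21 in both panels, while its sign on those days differs between the panels.

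The region difference changed over the 5 days in 69 of the 78 genes (limma F test of the region by day interaction), against 74.3% of all genes. That count was 13 with the same sum of RPKM in every library (67.3% of all genes) and 23 with the same sum over all but the mitochondrially encoded genes (70.1%). In 78 of 78 genes the log2 difference on the deposited scale was lower on day 21 than on day 3 (50.7% of all genes), and in 76 of 78 it was higher on day 42 than on day 21 (54.5%). Those 2 counts describe direction only, on the deposited scale. With the same sum of RPKM in every library the family's median difference was 0.71 on day 3, 0.75 on day 21 and 0.99 on day 42. The fall from day 3 to day 21 was thus not seen in the median on that scale. On the deposited scale 59 genes were lower on both days 14 and 21 (38.8% of all genes), 8 were lower on all 5 days (among them Rpl23a, Rpl36, Rpl7l1, Rpl9, Rps13, Rps27l and Rps29), and 0 were higher on all 5. Of all genes 28.8% were lower and 28.6% higher on all 5 days. Rpl22l1, Rpl39, Rpl41 and Rps23 were called on no day, as were 1.75% of all genes.

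Within the injured region, consecutive days were compared. From day 3 to day 7, 1 gene rose (27.7% of all genes) and 22 fell (32.7%), with a median log2 change of -0.12. From day 7 to day 14, 0 rose (21.9%) and 24 fell (21.2%), with a median of -0.23 against 0.01 for all genes. From day 14 to day 21, 0 were called in either direction, as were 0 of all genes (0% and 0%), with 5 of the 78 at an unadjusted p under 0.05 and 0 called by voom. From day 21 to day 42, 18 rose (11.2%) and 5 fell (13.6%). Over all days 70 of the 78 changed by the F test, against 87.6% of all genes. The count of day 7 to 14 ran from 12 without mouse A10 of day 7 to 42 without mouse A12 of day 7, and it was 15 without mouse A6 of day 14. Of the step from day 3 to 7, 15 calls were left without mouse A7 of day 7 and 12 genes fell without mouse A7 of day 3, while 10 rose without mouse A12 of day 7. The 5 genes that fell from day 21 to 42 were 2 without mouse A10 of day 21 or B9 of day 42, and 3 without A4 or A11 of day 21 or B1 of day 42. With the same sum of RPKM in every library the step from day 3 to 7 turned, with 45 genes up (60.7% of all genes) and 1 down (8.49%), while 41 fell (25.3%) and 0 rose (12.2%) from day 7 to 14. By total reads 23 fell (34.2%) and 1 rose (25.7%) from day 3 to 7, and 25 fell (21.6%) and 0 rose (20.1%) from day 7 to 14. Fitted with only the 2 days compared, 12 genes were called from day 3 to 7 (56.5% of all genes) and 14 from day 7 to 14 (35.4%).

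Rps2, which sits near the messenger RNA entry site of the small subunit, changed in the scar by -0.79 ± 0.14 (SE, adjusted p = 7.1e-05) on the log2 scale from day 3 to 7. Rps4l changed by -0.89 ± 0.17 (SE, adjusted p = 2.2e-04) and Rpl29, a large-subunit protein that mice can live without, by -0.26 ± 0.09 (SE, adjusted p = 0.017). The call of Rpl29 was lost without mouse A7 of day 3 (adjusted p = 0.063) or A12 of day 7 (adjusted p = 0.068). Rps27 was the 1 gene that rose over that step, by 0.41 ± 0.11 (SE, adjusted p = 0.0024). Rps20 had the lowest change among the core genes called from day 7 to 14, -0.52 ± 0.11 (SE, adjusted p = 0.001). Rpl22l1 and Rpl7 were also called over that step, at -0.60 ± 0.21 (SE, adjusted p = 0.027) and -0.26 ± 0.09 (SE, adjusted p = 0.031), but both calls were lost without mouse A5 (adjusted p = 0.082 and 0.074) or mouse A6 of day 14 (adjusted p = 0.063 and 0.069), and without A10 of day 7 (adjusted p = 0.088 and 0.11). From day 21 to 42 the scar gained Rpl35 (0.83 ± 0.21 SE, adjusted p = 0.0083) and Rps27l (0.79 ± 0.12 SE, adjusted p = 1.7e-04), while Rps29 (-0.42 ± 0.10 SE, adjusted p = 0.0038) and Rpl37a (-0.53 ± 0.16 SE, adjusted p = 0.025) went down. Rpl37a was not called without mouse A10 or A11 of day 21 or B9 of day 42 (adjusted p = 0.06, 0.072 and 0.068).

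In the uninjured region few of the 78 genes were called until day 21 and more from day 21 to 42. From day 3 to 7, 2 rose (10.4%) and 6 fell (14.5%), and from day 7 to 14, 6 rose (7.49%) and 0 fell (5.56%). From day 14 to 21, 0 rose (0.00878%) and 0 fell (0%), and 0 of the 78 had an unadjusted p under 0.05 by limma or were called by voom. From day 21 to 42, 1 rose (10.4%) and 38 fell (10.1%), with a median log2 change of -0.32 against -0.04 for all genes. Over all days 42 of the 78 changed (47.2% of all genes), but 11 did when day 42, whose mice carry the B labels, was left out (34.8%). By total reads 22 rose (27.4% of all genes) and 1 fell (3.78%) from day 3 to 7, and 0 were called from day 7 to 14 (11.6%), so the direction of the early steps depends on the scale. From day 21 to 42, 2 rose (8.01%) and 41 fell (12.6%) by total reads, and 2 rose (10.1%) and 9 fell (0.808%) with the same sum of RPKM. The 6 genes of day 7 to 14, among them Rpl36 (0.44 ± 0.12 SE, adjusted p = 0.02), Rpl8 (0.35 ± 0.10 SE, adjusted p = 0.025) and Rps9 (0.29 ± 0.08 SE, adjusted p = 0.024), were 0 without mouse A5 or A6 of day 14 or A7 or A12 of day 7. The 8 calls of day 3 to 7, among them Rpl39 (0.38 ± 0.12 SE, adjusted p = 0.03), were 5, 4, 3, 2 and 2 without A5, A7 or A8 of day 3 and A12 or A7 of day 7.

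Rps29, a small zinc-binding subunit, changed by -0.95 ± 0.10 (SE, adjusted p = 3.2e-06) in the uninjured region from day 21 to 42, with 238, 226, 216 and 217 RPKM on day 21 and 131, 98.6, 106 and 131 on day 42. No library of day 42 reached the lowest of day 21. Rpl7l1, a paralog of Rpl7, had the smallest called fall (-0.24 ± 0.07 SE, adjusted p = 0.022), a call lost without mouse A11 of day 21 (adjusted p = 0.055) or B9 of day 42 (0.085). The step from day 21 to 42 compares A-labelled with B-labelled animals.

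Rps16, a small-subunit protein, varied widely between libraries of 1 group. In the uninjured region of day 42 it was at 6.14, 0.384, 5.30 and 14.0 RPKM in mice B1, B3, B9 and B12, the value of B3 resting on 12 reads, while all other uninjured libraries lay between 14.4 and 23.7 RPKM. The injured libraries of those 4 mice were at 16.5, 14.5, 18.3 and 13.8 RPKM, within a narrow range. Its change in the uninjured region from day 21 to 42 was -1.94 ± 0.45 (SE, adjusted p = 0.0058), and -1.27 without B3. The region difference of day 42 was 1.59 ± 0.32 (SE, adjusted p = 1.6e-04), and 0.96 without B3, and it was seen in 3 of 4 mice. On day 3 the difference was 0.77 ± 0.32 (SE, adjusted p = 0.032), a call that was lost without any 1 of the 4 mice of that day (adjusted p = 0.056 to 0.086), and on day 7 it was 0.53 ± 0.32 (SE, adjusted p = 0.12).

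**Figure D3:**
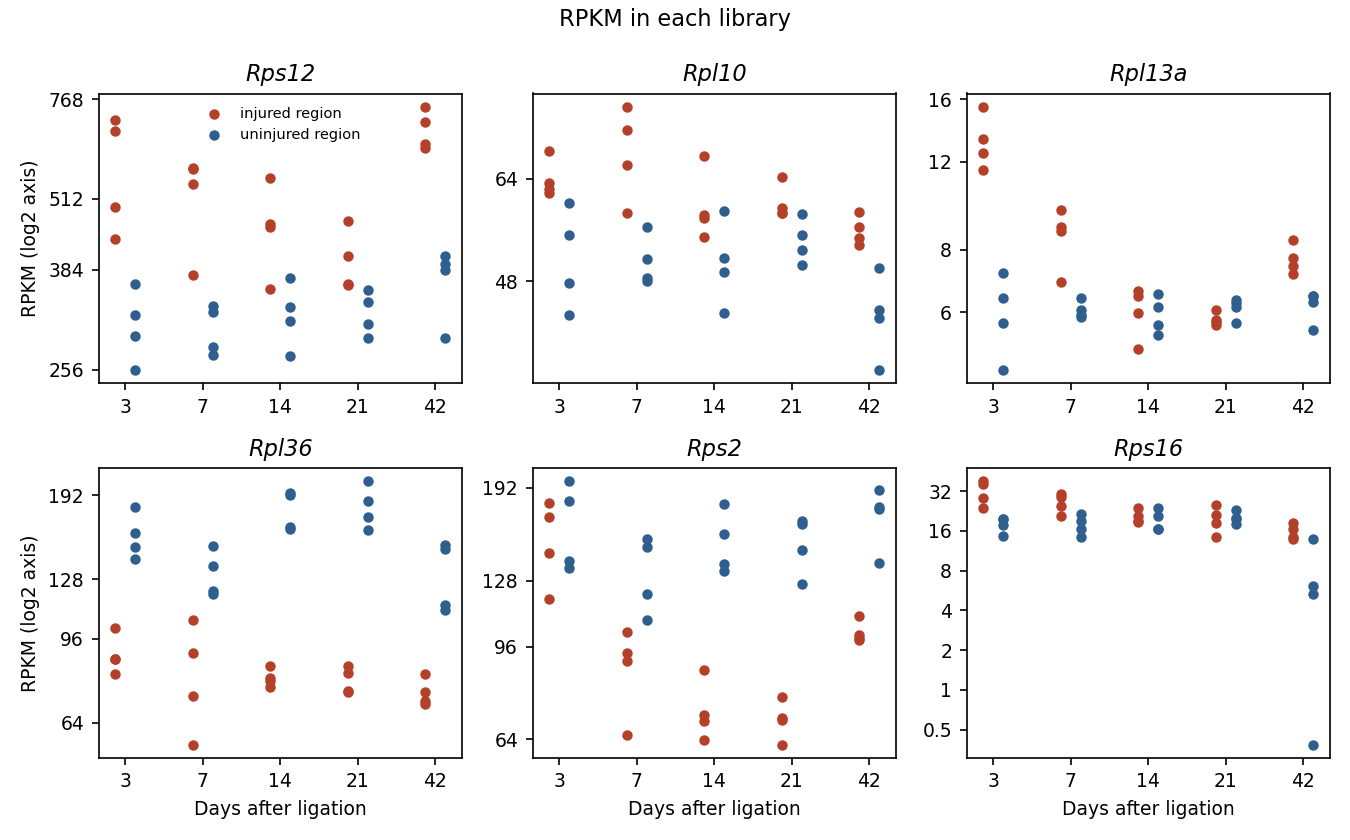
RPKM of 6 genes in each of the 40 libraries by day and region, on log2 axes of differing range. Rps12 and Rpl10 lie higher in the injured region, Rpl36 lies lower on all days and Rps2 from day 7 on in RPKM as deposited (not with the same sum of RPKM in every library), Rpl13a is highest in the injured libraries of day 3, and Rps16 spreads from 0.384 to 14.0 RPKM in the uninjured libraries of day 42.

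Because the scaling between libraries moves all genes together, each gene was also set against the median of the 78 genes in its own library. On this measure 5 genes were higher in the injured region in 20 of 20 mice (among them Rps12, Rpl12, Rpl10 and Rpl10a) and 6 were lower in 20 of 20 (among them Rpl36, Rps27l, Rps13, Rpl7l1 and Rpl23a), against 28.8% and 22.2% of all genes on the same measure. A refit with every library centred in this way called 10 genes on all 5 days, among them Rps12, Rpl12, Rpl10 and Rpl13a as higher and Rpl36, Rps27l, Rps13, Rpl7l1 and Rps29 as lower, where 52.5% of all genes were called on all 5. Its interaction test called 19 of the 78 genes, against 79.8% of all genes. Centring on the family's own median takes out the change that its genes share and passes it to all other genes. The counts of the family and the shares of all genes on this measure are therefore not a like comparison.

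**Figure D4:**
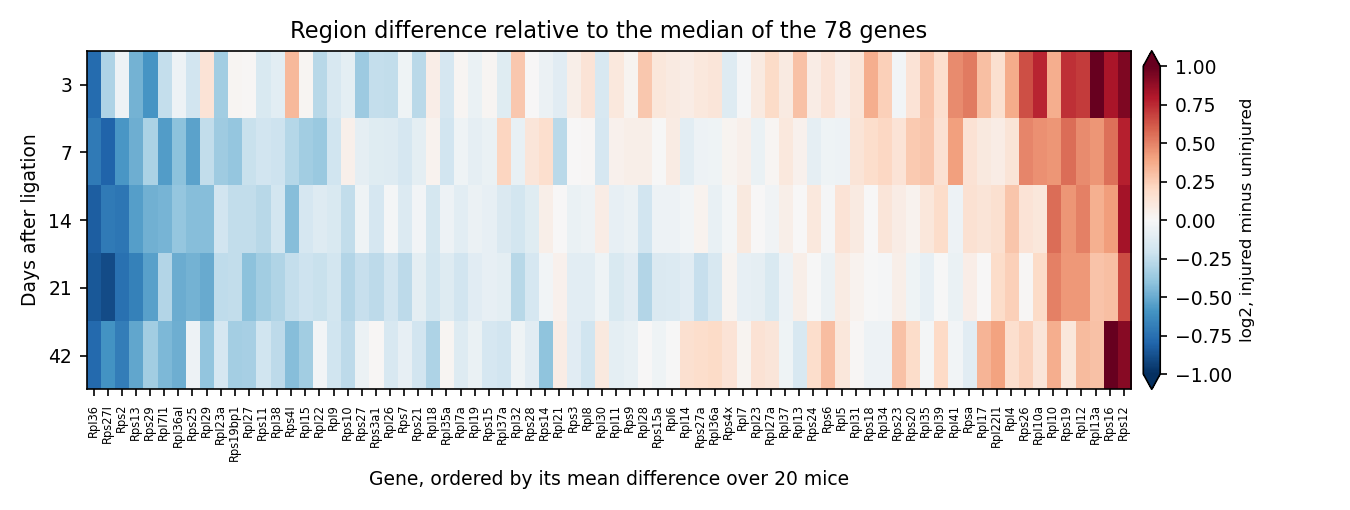
Region difference of 74 ribosomal protein genes relative to the median of all 78 in the same library (log2, injured minus uninjured), by day and averaged over 4 mice, with genes ordered by their mean over 20 mice. Rpl36 and Rps27l at the left are lower on every day, and Rps12 at the right is higher on every day.

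Rps12, a small-subunit protein with the highest RPKM of the family, stood highest in the scar relative to the family on average over 20 mice. Its gene lies at chr10:23785183-23787275 on the minus strand (GENCODE M21, GRCm38) and holds 3 small nucleolar RNA genes. On day 3 it was at 496, 676, 705 and 434 RPKM in the injured and 319.6, 363, 293 and 256 in the uninjured libraries. On day 42 the injured libraries were at 629, 641, 745 and 700.2 and the uninjured at 393, 407, 384 and 292 RPKM. The injured values lay above all uninjured ones on both days. The region difference was 0.89 ± 0.15 (SE, adjusted p = 9.8e-06) on day 3, 0.77 ± 0.15 (SE, adjusted p = 6.3e-05) on day 7, 0.50 ± 0.15 (SE, adjusted p = 0.0036) on day 14 and 0.89 ± 0.15 (SE, adjusted p = 1.2e-05) on day 42. On day 21 it was 0.30 ± 0.15 (SE, adjusted p = 0.061), past the threshold by voom (adjusted p = 0.039) and positive in 4 of 4 mice. Relative to the other ribosomal protein genes Rps12 was higher by 0.82 ± 0.29 (log2, SD, n = 20 mice).

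Among the other small-subunit genes, Rpsa, which also serves as a laminin receptor, was higher than the family median in the injured region by 0.15 ± 0.23 (SD, n = 20), with 0.52 on day 3 and -0.11 on day 42. Rps19, the gene most often mutated in Diamond-Blackfan anaemia, was higher by 0.46 ± 0.24 in 19 of 20 mice. Its injured libraries of day 7 were at 12.7, 15.9, 20.9 and 15.3 RPKM and the uninjured at 10.3, 11.3, 10.8 and 10.2, which do not overlap, and the difference on the deposited scale was 0.54 ± 0.10 (SE, adjusted p = 2.3e-05). Rps3, at the entry site for messenger RNA, was at -0.04 ± 0.10 and Rps28 at -0.05 ± 0.20, and neither was called on any day relative to the family. Rps6, the target of S6 kinases, was at 0.07 ± 0.25 over the 20 mice but at 0.31 on day 42 (limma adjusted p = 0.023), the 1 day on which it was called on this measure. On day 42 it was at 74.8, 74.5, 83.5 and 81.1 RPKM in the injured and 66.7, 70.1, 72.5 and 49.9 in the uninjured libraries, a deposited-scale difference of 0.28 ± 0.11 (SE, adjusted p = 0.019), higher in 4 of 4 mice. Rps14, lost in the 5q- syndrome, was at -0.05 ± 0.26 over the 20 mice and at -0.41 on day 42 (limma adjusted p = 0.0025), again the 1 day called. Its injured libraries of day 42 were at 72.3, 77.5, 60.8 and 72.3 and the uninjured at 91.1, 99.8, 73.5 and 123 RPKM, a difference of -0.43 ± 0.13 (SE, adjusted p = 0.0046) on the deposited scale, lower in 4 of 4 mice, that turned to 0.18 by total reads, not called.

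On the low side of the small subunit stood Rps2, Rps13, Rps29 and Rps27l. Rps2 lies at chr17:24718116-24721929 and was near the family median on day 3 (-0.05) and below it from day 7 on (-0.58, -0.72, -0.74 and -0.70 on days 7, 14, 21 and 42). Its injured libraries of day 21 were at 62.6, 77.0, 69.6 and 70.2 and the uninjured at 166, 164, 126 and 146 RPKM. Those groups are far apart, and on the deposited scale the differences were -0.59 ± 0.13 (SE, adjusted p = 2.8e-04), -1.05 ± 0.13 (SE, adjusted p = 2.0e-07), -1.09 ± 0.13 (SE, adjusted p = 1.1e-07) and -0.72 ± 0.13 (SE, adjusted p = 3.8e-05) on days 7, 14, 21 and 42. By total reads they were -0.13 on day 7 and -0.10 on day 42, not called, and with the same sum of RPKM in every library they turned to 0.44, 0.08, 0.12 and 0.35. Rps13 was at -0.54 ± 0.16 and lower in 20 of 20 mice, and Rps29 was at -0.45 ± 0.17 and lower in 19 of 20, with -0.63 ± 0.10 (SE, adjusted p = 3.3e-06) on the deposited scale on day 3 and 0.05 by total reads.

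Rpl36, a large-subunit protein, had the lowest mean over 20 mice relative to the family of all 78 genes. On days 7 and 21 Rps27l was lower on this measure, at -0.80 and -0.90. Rpl36 lies at chr17:56613416-56614243, with 383 exon bases. On day 21 its injured libraries were at 74.2, 74.8, 81.6 and 84.3 RPKM and the uninjured at 186, 206, 162 and 173. No injured library reached the lowest uninjured one on any day. The differences on the deposited scale were -0.82 ± 0.11 (SE, adjusted p = 4.6e-07), -0.72 ± 0.11 (SE, adjusted p = 2.9e-06), -1.15 ± 0.11 (SE, adjusted p = 2.6e-09), -1.19 ± 0.11 (SE, adjusted p = 1.4e-09) and -0.80 ± 0.11 (SE, adjusted p = 7.8e-07) on days 3, 7, 14, 21 and 42, by total reads -0.14 on day 3 and -0.19 on day 42, not called, and with the same sum of RPKM 0.32 on day 7 and 0.26 on day 42. Against the family median Rpl36 was lower, at -0.78 ± 0.17 in 20 of 20 mice, much the same on every day (-0.77, -0.70, -0.82, -0.84 and -0.78).

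On the high side of the large subunit stood Rpl10, Rpl12, Rpl10a and Rpl13a. Rpl10 joins the large subunit late in its assembly, near the site where transfer RNA binds. It was at 58.4, 56.0, 54.3 and 53.2 RPKM in the injured and 43.4, 49.8, 37.4 and 44.4 in the uninjured libraries of day 42, again without overlap. On the deposited scale it differed by 0.23 ± 0.09 (SE, adjusted p = 0.022) on day 14, a call lost without mouse A4 (0.10, adjusted p = 0.303), and by 0.15 ± 0.09 (SE, adjusted p = 0.11) on day 21. Relative to the family it was higher by 0.45 ± 0.15 in 20 of 20 mice. Rpl12, at the base of the stalk that binds elongation factors, was higher by 0.49 ± 0.18, also in 20 of 20.

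Rpl13a and Rpl10a had the smallest interaction p of the family. Rpl13a, which leaves the ribosome after interferon-gamma to repress translation of inflammatory messages, lies at chr7:45125558-45128761 and holds 4 small nucleolar RNA genes. It was at 12.5, 13.3, 15.5 and 11.6 RPKM in the injured and 5.72, 7.18, 6.41 and 4.60 in the uninjured libraries of day 3. On day 21 the values were 5.79, 6.06, 5.66 and 5.75 and 6.14, 6.36, 5.71 and 6.27 RPKM. On the deposited scale the wide gap of day 3 was closed by day 21, but not by total reads or with the same sum of RPKM. The difference was 1.03 ± 0.08 (SE, adjusted p = 3.8e-11) on day 3 against -0.06 ± 0.08 (SE, adjusted p = 0.44) on day 21. The interaction had an adjusted p of 1.5e-07 by limma. By total reads the difference of day 21 was 0.46, higher in the injured region. Relative to the family Rpl13a was at 1.08, 0.44, 0.35, 0.29 and 0.29 on the 5 days, called on each, so that the gap narrowed but stayed. Rpl10a, part of the mobile L1 stalk, went the same way on the deposited scale. It went from 0.72 ± 0.08 (SE, adjusted p = 3.8e-08) on day 3 to -0.16 ± 0.08 (SE, adjusted p = 0.068) on day 21 (interaction adjusted p = 1.1e-06). By total reads it was at 0.41 on day 21. Relative to the family it was at 0.76, 0.46, 0.12, 0.19 and 0.12 on the 5 days.

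Rpl32 and Rpl29 were the next by the interaction test (adjusted p = 2.7e-06 and 4.2e-06). Rpl32, a large-subunit protein, was at 140.0, 154, 159 and 126 RPKM in the injured and 117, 141, 128 and 109.8 in the uninjured libraries of day 3, a difference of 0.22 ± 0.08 (SE, adjusted p = 0.0093). By day 21 it was at 79.5, 88.6, 84.6 and 87.2 against 129, 142, 131 and 126 RPKM, without overlap and with a difference of -0.63 ± 0.08 (SE, adjusted p = 1.1e-07) as deposited and -0.03, not called, by total reads. Rpl29 was at 42.2, 45.5, 48.6 and 38.7 and 41.1, 43.2, 42.0 and 37.7 RPKM in the 2 regions on day 3, overlapping groups with a difference of 0.09 ± 0.08 (SE, adjusted p = 0.33). Its values were 22.1, 24.0, 23.2 and 25.4 and 46.7, 42.8, 44.1 and 41.2 on day 21, well apart, with -0.86 ± 0.08 (SE, adjusted p = 5.9e-09) as deposited. By total reads the difference of Rpl29 on day 21 was -0.27, and with the same sum of RPKM it turned to 0.33 (limma adjusted p = 0.019).

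The remaining large-subunit genes with well-known roles were set against the family median in the same way. Rpl5 and Rpl11, which bind Mdm2 together with 5S ribosomal RNA when assembly is disturbed, differed from the family median by 0.07 ± 0.10 and -0.04 ± 0.15 (SD, n = 20 mice). Rpl4 and Rpl39 line the exit tunnel of the nascent chain and were at 0.24 ± 0.18 and 0.14 ± 0.32. Rpl4 was higher in 17 of 20 mice. Rpl38, needed for the translation of certain Hox messages, was lower, at -0.21 ± 0.16, in 18 of 20 mice. Rpl22, an RNA-binding subunit that cells can do without, was lower, at -0.21 ± 0.16. Rpl36a was at 0.01 ± 0.26 and Rpl41, the smallest ribosomal protein, at 0.15 ± 0.50, whose spread over mice is several times its mean.

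Ratios within a library do not depend on the scaling between libraries, and 5 paralog pairs were compared by an exact two-sided sign-flip permutation test over the 20 mice, adjusted over the 5. Rps27l, a p53 target that binds Mdm2 as Rps27 does, had a lower ratio to Rps27 in the injured region, at -0.52 ± 0.36 (SD, n = 20) in log2 (exact adjusted p = 6.4e-05), in 19 of 20 mice. The mean was 0.05, -0.73, -0.69, -0.70 and -0.55 on days 3, 7, 14, 21 and 42. On day 21 Rps27l itself was at 19.0, 18.7, 18.9 and 26.2 RPKM in the injured and 47.7, 50.8, 49.5 and 51.9 in the uninjured libraries, which lie far apart. Its deposited-scale differences were -0.81 ± 0.10 (SE, adjusted p = 1.3e-07), -1.04 ± 0.10 (SE, adjusted p = 2.9e-09) and -1.25 ± 0.10 (SE, adjusted p = 1.6e-10) on days 7, 14 and 21. With all libraries rescaled to 1 sum of RPKM they were 0.21, 0.07 and -0.06.

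Rpl36al over Rpl36a was lower in the injured region, at -0.44 ± 0.29 (SD, n = 20) in 20 of 20 mice (exact adjusted p = 4.8e-06), least on day 3 (-0.185) and most on day 42 (-0.77). Rpl7l1 over Rpl7 was lower, at -0.45 ± 0.19 (SD, n = 20), also in 20 of 20 mice (exact adjusted p = 4.8e-06). For both pairs the unadjusted p was 1.9e-06, the smallest that the 1048576 sign flips can give. Rps19bp1 has no paralog here and was at -0.24 ± 0.26 (SD, n = 20) relative to the family median. Rpl22l1 over Rpl22, a pair in which Rpl22 is known to repress its paralog, went the other way and was higher by 0.43 ± 0.56 (SD, n = 20) in 15 of 20 mice (exact adjusted p = 0.0025). Rpl22l1 was called on no day by itself, with 0.38 ± 0.24 (SE, adjusted p = 0.16) on day 42, or 0.13 without mouse B9. Rps4l over Rps4x was lower, at -0.25 ± 0.52 (SD, n = 20) in 14 of 20 mice (exact adjusted p = 0.043), a call that did not hold with 1 RPKM added to both genes (-0.22) or without any 1 of 12 of the 20 mice (-0.20 to -0.25). Rps4l was not lower on every day: the mean was 0.47 on day 3. Reads of a processed copy can also match its parent gene, so this ratio is uncertain.

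**Figure D5:**
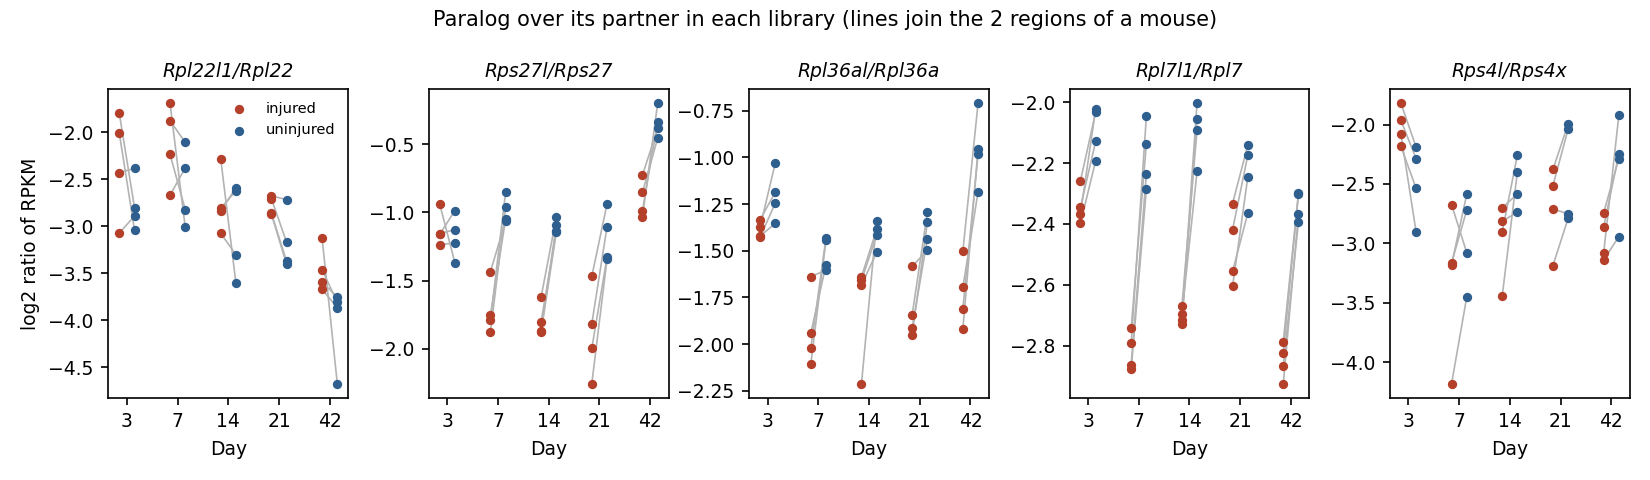
Log2 ratio of each paralog to its partner in each library, by day, with grey lines joining the regions of 1 mouse and axes of differing range. Injured points lie below those of their own mouse in 20 of 20 mice for Rpl36al/Rpl36a and Rpl7l1/Rpl7, in 19 of 20 for Rps27l/Rps27, and above in 15 of 20 for Rpl22l1/Rpl22.

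Subunit, tract and small nucleolar RNA genes lying within the gene's bounds on the same strand were compared as descriptions. Large-subunit genes had median log2 differences of 0.04, 0.00, -0.38, -0.46 and -0.05 on the 5 days and small-subunit genes -0.02, -0.04, -0.38, -0.46 and -0.09 on the deposited scale. The 32 genes with a tract were at 0.05, 0.04, -0.36, -0.46 and -0.03 and the 27 without at -0.02, -0.06, -0.41, -0.50 and -0.12. The 28 genes that hold a small nucleolar RNA gene, among them Rps12, Rpl13a, Rpl4 and Rpl10, were at 0.10, 0.05, -0.29, -0.37 and 0.08, and the other 50 at -0.03, -0.06, -0.39, -0.50 and -0.09. In each of these sets the medians of days 14 and 21 were the lowest of the 5 days.

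Gene length moved with the region difference in the rest of the table. The 78 genes have a median of 1776 exon bases, with 26 up to 1500 and 15 over 3000. Other genes of up to 1000 exon bases had medians of -0.31, -0.58, -0.62, -0.72 and -0.44 on the 5 days, those of 1000 to 1500 had -0.44, -0.65, -0.77, -0.83 and -0.56, and those of 1500 to 3000 had -0.15, -0.18, -0.30, -0.33 and -0.22. Those over 3000 exon bases were at 0.11, 0.12, 0.12, 0.13 and 0.09. The lowest medians were thus those of 1000 to 1500 bases and not of the shortest genes. The part of length in the results on ribosomal proteins was not tested.

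Other genes of translation, from lists made with earlier results of these data known, gave a setting for the family on the deposited scale. For comparison, 44.1% of all genes tested were higher and 39.6% lower on day 3, and 43.1% were higher and 41.0% lower on day 21. Of the ribosomal proteins outside the symbol rule, 5 were tested, the stalk proteins Rplp0, Rplp1 and Rplp2 with Fau and Rack1. Of these, 2 were higher and 0 lower on day 3, and 0 were higher and 4 lower on day 21. The 39 initiation factors had 9 higher and 19 lower on day 3 and 3 higher and 31 lower on day 21, with medians of -0.17 and -0.59. Elongation factors (9) had 5 higher and 4 lower on day 3 and 1 higher and 8 lower on day 21. Eef1a1, the main elongation factor that brings transfer RNA to the ribosome, was the 1 that was higher, at 0.90 ± 0.10 (SE) on day 21 (limma adjusted p = 3.8e-08).

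Ribosome assembly factors, which process ribosomal RNA and load the proteins, were the list that stood highest on day 3, with 31 of 47 higher, 5 lower and a median of 0.32. By day 7 they had 5 higher and 25 lower with a median of -0.19, and on day 21 6 higher and 27 lower at -0.26. The median of the ribosomal proteins was at -0.01 on day 7 and -0.46 on day 21. Of 10 genes of dividing cells, 10 were higher in the scar on day 3 and 0 on day 7. The part of cell division in these levels was not tested. RNA polymerase I genes (14) had 3 higher and 6 lower on day 3 and 1 higher and 8 lower on day 21. The shares of all genes were 44.1%, 43.6% and 43.1% higher and 39.6%, 38.7% and 41.0% lower on days 3, 7 and 21. The 6 of 14 RNA polymerase I genes lower on day 3 thus lie near the share of all genes. Mitochondrial ribosomal proteins, which serve the mitochondrion's own translation, were lower in 72 of 74 genes on day 3 and 73 of 74 on each later day. Their medians were -1.31, -1.53, -1.51, -1.61 and -1.35, and 38.7% to 41.0% of all genes were lower on the 5 days.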

How the data were processed

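RNA of 40 libraries was measured by RNA sequencing, from the injured and the uninjured region of 20 hearts. The authors deposited 1 table of RPKM values per gene and library. STAR, edgeR and the build mm10 are named in the submitters' processing notes, without versions or roles, and neither the gene lengths used nor the treatment of reads with several matches is stated there. Low RPKM values fell on steps of 1 read, and whole reads were recovered from them: in 11449 genes all values were whole within 0.01. Recovered reads per library ran from 11783328 to 28623320, which bounds the precision of genes with few reads.

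Tests used limma 3.58.1 (with statmod 1.5.0, in R 4.3.3) on log2(RPKM + 1), with trend and robust moderation, on genes at 1 RPKM or more in at least 4 libraries, with Benjamini-Hochberg adjustment over 11390 genes and a threshold of 0.05. Log2 differences are on the log2(RPKM + 1) scale and understate the change of low genes. Region comparisons took the mouse as a fixed block, since the design text says that both regions come from the same heart, and a recurring animal label on another day was taken as another animal. Deviations from the group means of the regions of 1 mouse correlated at 0.148 to 0.54, and in 20 of 20 mice the injured library correlated best with its own uninjured one. Days were compared within each region. Voom on recovered reads, centring on the family's median and leaving out day 42 were added after seeing the data. The scripts were tested on simulated data.

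The members and the gene lists were chosen with earlier results of these data known. Genes were named by textbook role or as paralogs, as the 3 highest and 3 lowest differences of each day, the 4 smallest interaction p, the 2 highest and 2 lowest called changes of each step, and the 3 highest and 3 lowest levels. Rpl12, Rps13, Rpl23a and the genes of the first 6 sequences were singled out after their values or sequences were seen. Values of 4 of the 78 genes are not reported here by name, and these genes stay in all counts and medians. Growth signalling genes, from a further list, had 5 of 16 higher and 7 lower on day 3 and 4 higher and 8 lower on day 21. The shares of all genes were 44.1% higher and 39.6% lower on day 3, and 43.1% higher and 41.0% lower on day 21. The 7 of 16 growth signalling genes lower on day 3 thus lie near the share of all genes. Of the other cell type lists, 5 of 6 neutrophil, 8 of 8 endothelial, 8 of 8 smooth muscle and pericyte, 4 of 4 red cell, 1 of 4 Schwann cell and 0 of 9 lymphocyte markers had rows. On day 21 these had 1, 0, 6, 0 and 1 genes higher and 0, 8, 2, 4 and 0 lower in the injured region, leaving out lymphocytes. That samples are separate animals rests on the labels, and with 4 per group their number limits the precision.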

Additional observations from a re-analysis of the deposited data

Results flagged for a closer look

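The region difference of 69 of the 78 ribosomal protein genes changed over the days by limma's interaction test, against 74.3% of all genes. In 390 groups of 4 libraries (37 named genes and the family's summed RPKM and share of reads, in 10 groups each), 16 held a library that stood apart from the other 3 by Dixon's criterion, and chance flags about 1 in 20 such groups. In the injured region these were Rps14 at 114.9 RPKM and Rps28 at 30.33 RPKM on day 3 (mice A7 and A8). On day 14 they were Rpl4 at 317.9 RPKM and Rpl36al at 5.492 RPKM (both mouse A5), Rpl5 at 33.95 RPKM and Rps20 at 26.92 RPKM (both A4) and Rpl38 at 70.55 RPKM (A6). On day 21 Rpl10 at 64.33 RPKM and Rps27l at 26.22 RPKM stood apart in mouse A11, and Rpl38 at 86.5 RPKM in A4. On day 42 Rps27 was at 63.62 RPKM in mouse B9 and Rpl41 at 54.36 RPKM in B1. In the uninjured region Rpsa at 96.5 RPKM (mouse A11) and Rpl22l1 at 7.174 and Rpl36al at 12.31 RPKM (both mouse A10) stood apart on day 21, and Rpl22l1 at 1.643 RPKM (B9) on day 42.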

How the results depend on the processing

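Counts of called genes and their medians kept within 1.5 times or within the spread of replicates with no filter on low values, with pseudocounts of 0.1 or 5 RPKM and with median-of-ratios size factors. The fit without the mouse as a block was compared in 16 main results and 38 further ones. Among these it changed no call and moved no count by over 1.5 times, with 65 genes lower on day 21. With the mouse as a random block, without trend and robust moderation, and by voom on recovered reads (added after seeing the data), 1 and not 0 genes were higher on day 21. With genes of at least 5 RPKM only, the family's median relative to all genes turned to 0.094 on day 3 and 0.020 on day 42. In fits of only the libraries compared, 1 gene was higher on day 14, 12 and 14 were called in the injured region from day 3 to 7 and 7 to 14, and 1 in the uninjured region from day 7 to 14. Without day 42 (added after seeing the data), 11 genes changed over the days in the uninjured region. With 1 RPKM added to both genes, Rps4l over Rps4x was at -0.22 (exact adjusted p = 0.057). Scaling was the choice that moved results most, on days 3, 7, 14, 21 and 42 in turn. Quantile normalization gave 67, 62, 40, 37 and 56 genes higher and 0, 4, 11, 12 and 5 lower, with medians of 0.63, 0.57, 0.29, 0.24 and 0.51, or 0.59, 0.53, 0.28, 0.24 and 0.51 above that of all genes. It turned Rpl36 (0.11) and Rps29 (0.44) on day 3, Rpl36 (0.045) and Rps2 (0.18) on day 7, Rpl32 on day 21 (0.31) and Rps2 on day 42 (0.080), and called 17 and 1 genes in the uninjured region from day 3 to 7 and 7 to 14. The same sum of RPKM gave 74, 77, 73, 72 and 76 higher and 0, 0, 0, 0 and 0 lower, with medians of 0.71, 0.99, 0.75, 0.75 and 0.99, and 0.11 above all genes on days 3 and 42. It turned Rps29 (0.076) on day 3, Rpl36 (0.32), Rps2 (0.44) and Rps27l (0.21) on day 7, and Rps2 (0.081) and Rps27l (0.072) on day 14. On day 21 it turned Rpl10a (0.99), Rpl13a (0.98), Rpl29 (0.33), Rpl32 (0.58), Rpl36 (0.021) and Rps2 (0.12), and on day 42 Rpl36 (0.26) and Rps2 (0.35). With it 13 genes had an interaction and 20 changed over the days in the uninjured region, 46, 41 and 14 were called in the injured region from day 3 to 7, 7 to 14 and 21 to 42, and 1, 0 and 11 in the uninjured one, where Rpl29 turned to 0.22 in the injured step from day 3 to 7. The same sum without mitochondrially encoded genes gave 41, 51, 24, 21 and 61 higher and 4, 3, 8, 8 and 1 lower, with medians of 0.26, 0.35, 0.18, 0.17 and 0.50 and 0.012 above all genes on day 42. It turned Rpl10a (0.43) and Rpl13a (0.48) on day 21 and Rpl29 in the step from day 3 to 7 (0.078), with an interaction in 23 genes and 26 and 13 calls in the uninjured region from day 3 to 7 and 7 to 14. Total recovered reads gave 74, 62, 27, 22 and 64 higher and 0, 2, 11, 9 and 0 lower, with medians of 0.70, 0.44, 0.185, 0.14 and 0.54, and 0.095 and 0.030 above all genes on days 3 and 42. They turned Rps29 (0.051) on day 3 and Rpl10a (0.41) and Rpl13a (0.46) on day 21, and called 23 and 0 genes in the uninjured region from day 3 to 7 and 7 to 14. Centred on the family's median (added after seeing the data), 11 genes were lower on day 3, 7 higher and 14 lower on day 14, 7 higher and 23 lower on day 21, with medians of -0.047 and -0.11 on days 14 and 21. Rpl10a (0.19) and Rpl13a (0.29) on day 21 and Rpl7 (0.038) in the injured step from day 7 to 14 turned, 19 genes had an interaction and 6 were called in that step. All of these scalings but quantile normalization shift all genes of a library by 1 factor, and the cause of the turns under quantile normalization was not tested. Leaving out each mouse in turn gave 13 to 19, 7 to 13, 2 to 3, 0 to 1 and 5 to 8 genes higher and 10 to 18, 15 to 22, 49 to 62, 62 to 68 and 16 to 23 lower, with medians of -0.01 to 0.03, -0.10 to 0.02, -0.45 to -0.32, -0.49 to -0.42 and -0.09 to -0.03. The interaction count ran from 60 to 71, and the counts over all days from 63 to 73 (injured region) and 36 to 44 (uninjured region). The 4 steps had 15 to 31, 12 to 42, 0 to 0 and 17 to 27 calls within the scar, and 2 to 12, 0 to 8, 0 to 0 and 31 to 41 within uninjured tissue. Ratios ran from 0.37 to 0.47 for Rpl22l1 over Rpl22, -0.58 to -0.50 for Rps27l over Rps27, -0.46 to -0.41 for Rpl36al over Rpl36a, -0.46 to -0.44 for Rpl7l1 over Rpl7 and -0.31 to -0.20 for Rps4l over Rps4x. Without mouse B3 or B12 of day 42, the difference of Rps16 on day 7 passed the threshold at 0.53 (limma adjusted p = 0.0075 and 0.033). The value of Rps16 in the uninjured region of B3 rests on 12 reads.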
